A study of Mus musculus with 24 samples.

Results

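The slit diaphragm is the cell junction that bridges the foot processes of podocytes, the epithelial cells that cover the capillaries of the glomerulus, and it forms the last layer of the kidney's filter. It is built around the adhesion protein nephrin, which scaffold and adaptor proteins tie to the actin skeleton and to signalling enzymes, while a small set of transcription factors keeps the podocyte program on. Loss of several of these proteins causes protein to leak into the urine. Proximal tubule cells and endothelial cells are not known to build this junction, although they share some of its members with podocytes.

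The 8 genes described here were chosen by symbol, out of 53392 genes in the quantified transcriptome. They are Nphs1 (nephrin itself), Podxl (podocalyxin, a charged mucin on the foot process surface that endothelium also makes), Wt1 (a zinc finger transcription factor), Synpo (synaptopodin, an actin-associated protein), Ptpro (a receptor tyrosine phosphatase of the foot process membrane), Cd2ap (an adaptor between nephrin and actin that many cell types express), Magi2 (a scaffold that binds nephrin) and Plce1 (phospholipase C epsilon 1, a signalling enzyme). All 8 were found, and all 8 passed the filter on low counts in every fit.

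The mice were of the FVB strain and no transgene is named in the labels. Kidneys of females and males were taken with no injury, labelled sham, or after ischemic acute kidney injury, labelled IRI, and the time after injury and the ages are not given in the sources used here. After enzymatic digestion, proximal tubules were microdissected (labelled PTs) and endothelial cells were pulled out with CD31 microbeads (labelled endo). Each of the 8 groups, sham or injured, female or male, tubule or endothelial isolate, had 3 samples, except the sham female endothelial group with 2, so 23 samples were compared. The labels give 3 mice of each sex per experimental group. The sample titles carry 12 distinct numbers, and 11 of them recur in an endothelial and a tubule sample of the same sex and treatment, so these pairs may each come from 1 mouse, although no label says that the number is a mouse. The tests below treat the samples as unpaired, and values with the title number as a block are given where they change a call.

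Depth ran from 32592517 to 54906972 reads per sample, and 7.06% to 16.2% of the reads came from mitochondrial genes. Levels below are counts per 1000000 reads (CPM) after TMM normalization, which corrects library totals for composition. Where groups or isolations are said not to overlap, the share of all genes that did not overlap was not counted. Each log2 change is given with its standard error, and a gene was called when its adjusted p was under 0.05 (edgeR's quasi-likelihood test, with the Benjamini-Hochberg adjustment taken over every gene in the fit).

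The isolates were checked against markers of the cells that they could hold. Of 12 endothelial markers, all 12 were higher in the sham endothelial isolates than in the sham tubules, with a median log2 difference of 2.45. Pecam1, which encodes CD31 itself, ran from 58.9 to 217 CPM in the endothelial isolates and from 22.4 to 56.4 CPM in the tubules. Of 12 proximal tubule markers, edgeR called 0 between the isolations in sham mice, with 3 at an unadjusted p under 0.05. Over sham and injured libraries together their summed level was 7796 to 26039 CPM in the endothelial isolates against 12424 to 27834 CPM in the tubules. The medians of these sums were 17488 CPM in the endothelial isolates and 22756 CPM in the tubules.

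Podocyte transcripts were found in both isolations. Podxl, the most abundant member, ran from 306 to 950 CPM in the 11 endothelial isolates, with a median of 590 CPM. In the 12 tubule libraries it ran from 16.7 to 228 CPM, with a median of 94.1 CPM. These are bulk samples, so fewer cells of a type and less RNA per cell cannot be told apart.

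3 tubule libraries stood apart from the other 9 by their few reads of Nphs1, Wt1 and Ptpro. Sham male replicate 1 had 0 reads of Nphs1, which allows a level of up to 0.0806 CPM at a floor of 3 counts, with 3 reads of Wt1 and 5 of Ptpro. Injured female replicate 3 had 4 reads of Nphs1, 9 of Wt1 and 38 of Ptpro. Injured male replicate 2 was less extreme, with 134 reads of Nphs1, 76 of Wt1 and 57 of Ptpro. They held 40911725, 44543672 and 47176088 reads in all, so they were not the shallow ones.

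Summed markers of the other cells of the glomerulus were among the lowest in 2 of these libraries, and markers were mixed in the last. The summed glomerular endothelial markers were at 25.6, 23.6 and 317 CPM, against a median of 109 CPM over the 12 tubule libraries, and the summed mesangial and mural markers at 68.1, 65.0 and 259 CPM, against a median of 154 CPM. The lowest mesangial and mural sum, 61.1 CPM, was in a sham female tubule library outside these 3. Plat, a glomerular endothelial marker, was at 5.64, 2.99 and 274 CPM in the 3 libraries. Ehd3, from the same list, was at 5.77, 6.30 and 8.65 CPM in them, while the other 9 tubule libraries ran higher, from 11.3 to 47.1 CPM. Emcn, also on that list, did not set them apart, at 10.1, 11.8 and 28.4 CPM, with 11.1 CPM in sham male replicate 3. Itga8, an integrin subunit of mesangial cells, was at 0.19, 0.32 and 2.82 CPM, and 1 further library, sham female replicate 2, was also low at 1.09 CPM. The summed proximal tubule markers of the 3 libraries were 22895, 21406 and 12424 CPM, the last of these being the lowest among tubules. These libraries spread over 3 of the 4 tubule groups, and comparisons of tubules were also fitted without all 3. That alternative was added after the data were seen. Since these libraries are set apart by their few Nphs1 reads, leaving them out narrows the spread of the podocyte genes by construction.

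**Figure D1:**
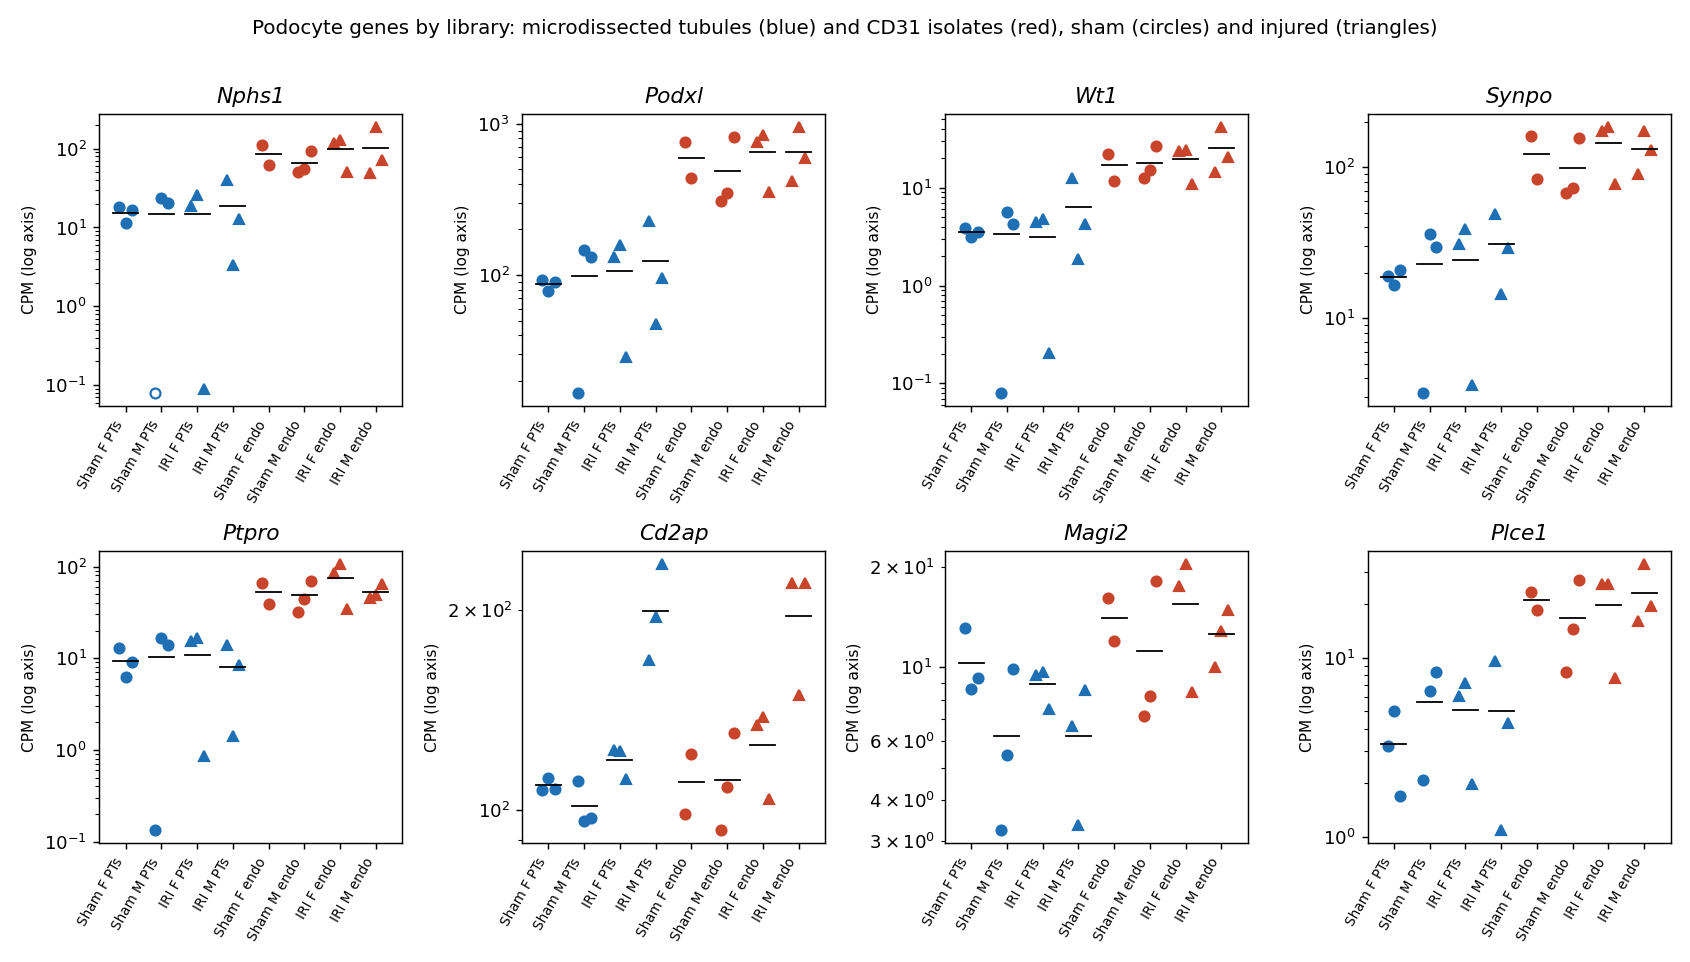
Level of each of the 8 genes in each of the 23 libraries, in CPM on log axes that differ between panels. Points are libraries, black bars are group means, and the open circle marks the library with 0 reads of Nphs1, drawn at its floor of 0.0806 CPM. The endothelial isolates all lie above the tubules for Nphs1, Podxl, Synpo and Ptpro, with some overlap for Wt1, Plce1 and Magi2, and Cd2ap has like levels in both. The share of all genes without overlap was not counted.

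The sequences around the transcription starts are shown for 5 of the 8 genes, Cd2ap among them. In the GENCODE M21 annotation Nphs1 (ENSMUSG00000006649.17) spans chr7:30458315-30487223, and Cd2ap (ENSMUSG00000061665.7) spans chr17:42792951-42876665. Each sequence is the RefSeq window of 250 bases before to 50 bases after an annotated start, on GRCm38.p6, 5′ to 3′ on the gene's strand. Capitals mark CpG dinucleotides, whose density separates the promoters of broadly expressed genes from many tissue-restricted ones. RefSeq windows were used for these 5 of the 8 genes, and Magi2 had 2. The 5 were not chosen by how they varied over the libraries, and windows of Podxl, Wt1 and Synpo are not reported here.
Nphs1, chr7:30459808-30460107, plus strand: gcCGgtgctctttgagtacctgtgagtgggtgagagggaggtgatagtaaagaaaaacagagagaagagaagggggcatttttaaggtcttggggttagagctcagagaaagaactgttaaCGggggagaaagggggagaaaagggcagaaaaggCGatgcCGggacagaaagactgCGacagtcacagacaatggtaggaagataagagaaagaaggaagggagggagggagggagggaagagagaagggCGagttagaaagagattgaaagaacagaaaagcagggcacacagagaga
Ptpro, chr6:137252049-137252348, plus strand: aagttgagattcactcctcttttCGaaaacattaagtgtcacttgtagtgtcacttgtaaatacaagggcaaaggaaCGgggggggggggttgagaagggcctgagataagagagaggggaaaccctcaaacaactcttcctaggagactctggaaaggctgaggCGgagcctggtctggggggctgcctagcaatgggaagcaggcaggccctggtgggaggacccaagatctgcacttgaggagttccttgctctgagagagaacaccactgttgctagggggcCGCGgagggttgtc
Plce1, chr19:38523947-38524246, plus strand: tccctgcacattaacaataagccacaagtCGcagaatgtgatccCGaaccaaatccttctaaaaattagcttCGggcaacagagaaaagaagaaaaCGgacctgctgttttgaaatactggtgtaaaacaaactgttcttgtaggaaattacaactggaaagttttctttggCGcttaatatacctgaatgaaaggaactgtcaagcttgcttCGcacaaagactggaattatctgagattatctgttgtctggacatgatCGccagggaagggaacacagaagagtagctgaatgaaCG
Magi2, first window, chr5:19226796-19227095, plus strand: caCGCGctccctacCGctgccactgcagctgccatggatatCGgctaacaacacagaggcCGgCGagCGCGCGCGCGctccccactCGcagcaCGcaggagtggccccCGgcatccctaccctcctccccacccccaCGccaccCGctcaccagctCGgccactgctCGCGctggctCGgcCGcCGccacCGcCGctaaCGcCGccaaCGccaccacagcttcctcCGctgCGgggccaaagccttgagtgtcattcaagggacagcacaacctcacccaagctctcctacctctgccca
Magi2, second window, chr5:19907268-19907567, plus strand: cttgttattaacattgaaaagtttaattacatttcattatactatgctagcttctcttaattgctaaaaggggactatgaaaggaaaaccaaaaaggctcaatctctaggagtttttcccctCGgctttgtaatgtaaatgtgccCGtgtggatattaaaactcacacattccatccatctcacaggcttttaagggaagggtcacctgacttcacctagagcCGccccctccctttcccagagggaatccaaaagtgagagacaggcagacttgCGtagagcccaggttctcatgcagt
Cd2ap, chr17:42876375-42876674, minus strand: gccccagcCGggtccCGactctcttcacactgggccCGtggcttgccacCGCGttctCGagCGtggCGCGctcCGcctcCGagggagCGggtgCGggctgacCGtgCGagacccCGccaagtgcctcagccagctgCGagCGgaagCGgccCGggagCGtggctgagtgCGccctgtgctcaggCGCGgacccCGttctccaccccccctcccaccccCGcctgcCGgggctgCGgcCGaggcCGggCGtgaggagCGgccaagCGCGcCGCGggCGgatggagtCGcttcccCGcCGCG

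The Cd2ap window held 41 CpGs and was 77.0% G and C, and only 3.46% of the 32851 mouse windows of this length held as many CpGs. The Nphs1, Ptpro and Plce1 windows held 6, 5 and 8 CpGs, close to the median of 7 over all windows. The 2 windows of Magi2 differed from each other, with 29 and 4 CpGs. A search of both strands for GNGTGGGNG, a G-rich motif of the kind that WT1 and EGR proteins bind, found 1 match each in the Nphs1 and Cd2ap windows and in the first Magi2 window, and the motif is in 14.3% of all windows. The motif CANNTG matched 3 times in the Ptpro window, 2 times in Cd2ap, once in Plce1 and in each Magi2 window, and not in Nphs1, and it is in 72.3% of all windows. These counts and matches describe letters only, and any link to how the genes varied over the libraries was not tested.

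Nephrin transcripts were higher in every endothelial isolate than in every tubule library. In the sham tubules Nphs1 was at 18.4, 11.4 and 16.5 CPM in females and at 0, 23.9 and 20.6 CPM in males. In the injured tubules it was at 18.6, 25.7 and 0.09 CPM in females and at 40.6, 3.32 and 12.7 CPM in males. Tubule libraries thus varied more within groups than between them.

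In the endothelial isolates Nphs1 was at 112 and 61.2 CPM in sham females and at 50.4, 55.1 and 92.4 CPM in sham males. After injury it was at 118, 130 and 50.8 CPM in females and at 48.9, 188 and 72.7 CPM in males. The lowest endothelial isolate, at 48.9 CPM, lay above the highest tubule library, at 40.6 CPM. The log2 difference between the isolations was 2.32 ± 0.91 in sham mice, which missed the threshold (edgeR adjusted p = 0.111). It was 2.60 ± 0.89 in injured mice (edgeR adjusted p = 0.107). Without sham male tubule replicate 1, the library with 0 reads, the sham value was 2.03 (edgeR adjusted p = 0.108), so the call did not change. With no low-count filter Nphs1 was called in both states (edgeR adjusted p = 0.038 in sham and 0.029 in injured mice). Without the 3 low tubule libraries it was also called in both, at 2.01 ± 0.41 in sham mice (edgeR adjusted p = 0.00408) and 2.02 ± 0.42 in injured mice (edgeR adjusted p = 0.0387). With the title number as a block it was not called in either (edgeR adjusted p = 0.172 and 0.142). That Nphs1 was higher in the endothelial sample of all 11 pairs follows from the lack of overlap and adds nothing to it.

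For Podxl, Synpo, Ptpro, Wt1 and Plce1 the estimated log2 difference of endothelial isolates over tubules was 2.07 to 2.76. In sham mice 5 of 8 members were called higher and 0 lower, where 10.4% of all genes tested were called higher. The 5 were Podxl, Synpo, Plce1, Wt1 and Ptpro, and the median over the 8 members was 2.34 against 0 over all genes. In injured mice 4 of 8 were called higher, Podxl, Synpo, Plce1 and Ptpro, against a background of 3.9%, with a median of 2.33 against 0.02 over all genes.

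Podxl had the smallest adjusted p of the members in both states. Its mean was 532 CPM in the sham endothelial groups and 92.5 CPM in the sham tubule groups, a log2 difference of 2.55 ± 0.52 (edgeR adjusted p = 0.0028). In injured mice the difference was 2.51 ± 0.51 (edgeR adjusted p = 0.0103). Podocalyxin is also an endothelial protein, so this member does not separate podocytes from the cells that the beads were meant to take.

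Synpo, the gene of synaptopodin, differed by nearly as much, and the cell source of its reads was not tested. It ran from 67.1 to 184 CPM in endothelial isolates and from 3.22 to 49.2 CPM in tubules, and the isolations did not overlap. The log2 difference was 2.39 ± 0.55 in sham mice (edgeR adjusted p = 0.00617) and 2.33 ± 0.53 in injured mice (edgeR adjusted p = 0.0178).

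Ptpro, whose product is also called GLEPP1, ran from 31.9 to 105 CPM in endothelial isolates and from 0.13 to 16.5 CPM in tubules. It was higher by 2.37 ± 0.74 in sham mice (edgeR adjusted p = 0.0401) and by 2.76 ± 0.72 in injured mice (edgeR adjusted p = 0.0343). The isolations did not overlap here either.

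Wt1, the transcription factor among the members, ran from 10.8 to 41.7 CPM in endothelial isolates and from 0.08 to 12.7 CPM in tubules. It was called in sham mice, at 2.35 ± 0.70 (edgeR adjusted p = 0.0316). In injured mice the size was alike, 2.33 ± 0.67, but it missed the threshold (edgeR adjusted p = 0.052). With the title number as a block the sham difference missed the threshold as well (edgeR adjusted p = 0.0609), and without the 3 low tubule libraries the injured one passed it, at 1.80 (edgeR adjusted p = 0.04). The isolations overlapped in injured mice through injured female endothelial replicate 3 and injured male tubule replicate 1.

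Plce1 was the lowest of the 8 per length. It ran from 7.67 to 33.2 CPM in endothelial isolates and from 1.09 to 9.62 CPM in tubules, with a difference of 2.11 ± 0.52 in sham mice (edgeR adjusted p = 0.00982) and 2.07 ± 0.50 in injured mice (edgeR adjusted p = 0.0222). The isolations overlapped in injured mice, at 7.67 CPM in the lowest endothelial isolate and 9.62 CPM in the highest tubule library. Without the 3 low tubule libraries the injured difference of 1.6 missed the threshold (edgeR adjusted p = 0.0898).

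The 2 intracellular partners of nephrin, Magi2 and Cd2ap, differed less. Magi2 ran from 7.12 to 20.4 CPM in endothelial isolates and from 3.25 to 13.1 CPM in tubules, and its differences of 0.65 ± 0.32 in sham mice (edgeR adjusted p = 0.214) and 0.91 ± 0.30 in injured mice (edgeR adjusted p = 0.0969) missed the threshold. With the title number as a block the injured difference of 0.90 passed it (edgeR adjusted p = 0.0332). Cd2ap had nearly equal levels in both isolations. It ran from 93.3 to 220.0 CPM in endothelial isolates and from 96.1 to 235 CPM in tubules, with differences of 0.07 ± 0.13 in sham mice (95% interval -0.20 to 0.35, edgeR adjusted p = 0.815) and 0.03 ± 0.12 in injured mice (95% interval -0.23 to 0.29, edgeR adjusted p = 0.967).

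These counts depended on single libraries, in sham mice through Ptpro and Wt1, which lay near the threshold. In injured mice the highest edgeR adjusted p with 1 library left out was 0.0567 for Synpo, 0.0633 for Plce1 and 0.0851 for Ptpro. That of Podxl was 0.0358. In sham mice 5 of the 8 remained called without sham male tubule replicate 1, and leaving out another library gave 3 to 5, with 3 called without sham female endothelial replicate 1, sham male endothelial replicate 3, any 1 of the 3 sham female tubule replicates, or sham male tubule replicate 3. In injured mice the count fell from 4 to 1 without male tubule replicate 2 and to 2 without female tubule replicate 3, or without female tubule replicate 1, female endothelial replicate 1 or female endothelial replicate 2. Without the 3 low tubule libraries together, 6 members were called in sham mice and 5 in injured mice, with Podxl at 2.27 and 2.05, Synpo at 2.11 and 1.86, and Ptpro at 2.06 and 2.20.

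**Figure D2:**
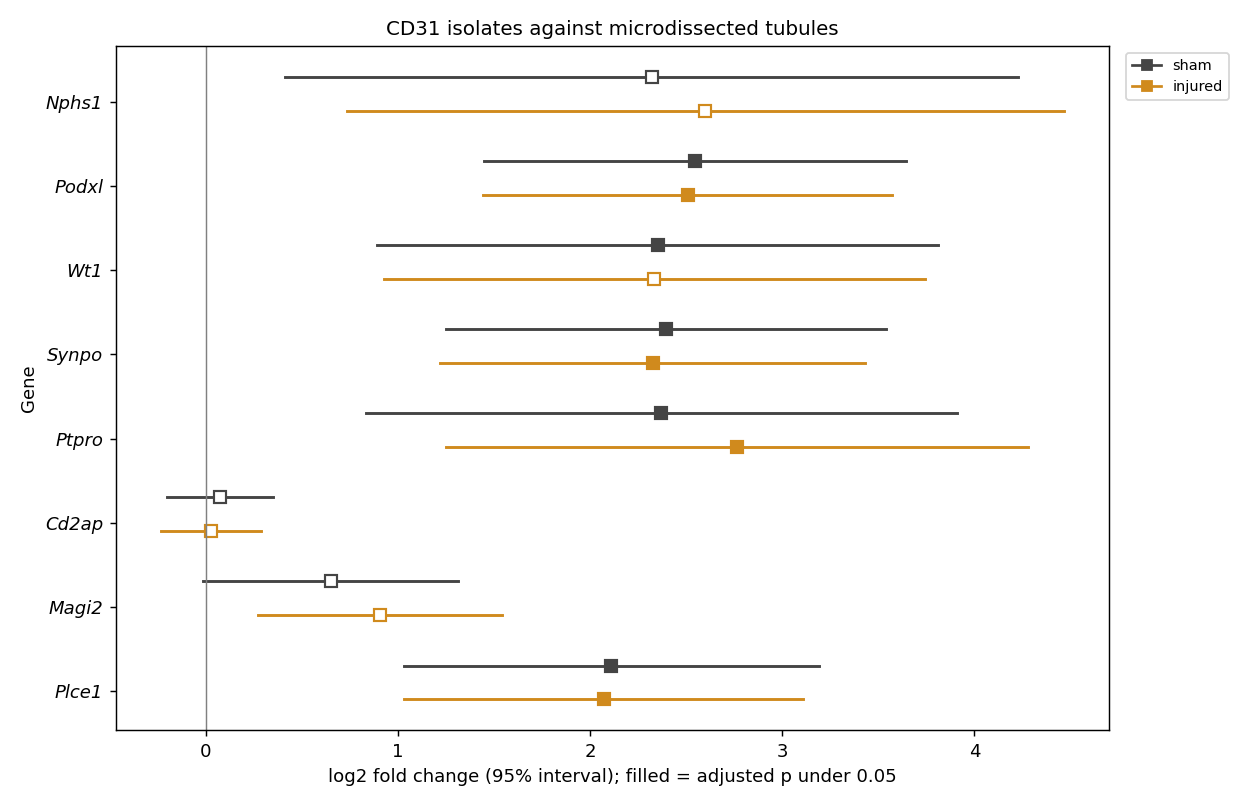
Log2 fold change of endothelial isolates against tubules for the 8 genes, in sham (grey) and injured (orange) mice. Squares are edgeR estimates with 95% intervals as lines, filled where the adjusted p was under 0.05. For 6 genes the estimates lie between 2.07 and 2.76, while those of Magi2 and Cd2ap lie between 0.03 and 0.91.

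Glomerular endothelial markers were higher in endothelial isolates, and markers of the other glomerular cells were mixed. All 7 glomerular endothelial markers were called higher in sham endothelial isolates, with a median log2 difference of 3.83. Their summed level in sham mice was 431 to 1469 CPM in endothelial isolates against 25.6 to 137 CPM in tubules. Over sham and injured libraries together it was 431 to 4432 CPM against 23.6 to 840 CPM. Of 12 mesangial and mural markers 5 were called higher in sham endothelial isolates and 7 did not pass, with a median of -0.09. Of 4 parietal epithelial markers 0 were called, with a median of 0.25, and of 7 thick limb and distal tubule markers 5 were higher, with a median of 2.27. The part of these cells in the differences of the 8 genes was not tested.

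Other podocyte genes were read from 4 lists. Of 12 further slit diaphragm genes, 6 were called higher in sham endothelial isolates, with a median of 2.01. They included Fyn, the kinase that phosphorylates nephrin, at 2.47 ± 0.39 (edgeR adjusted p = 0.000395), the channel gene Trpc6 at 3.75 ± 0.84 (edgeR adjusted p = 0.00546) and Kirrel, which encodes the nephrin-like protein Neph1, at 2.44 ± 0.63 (edgeR adjusted p = 0.0142). Of 13 cytoskeletal genes 6 were higher, led by Slc9a3r2 at 2.43 ± 0.37, the myosin gene Myo1e at 0.92 ± 0.16 and the formin gene Inf2 at 2.62 ± 0.53. Of 6 podocyte transcription factors 5 were higher, among them Foxc1 at 2.40 ± 0.47 and Dach1 at 0.95 ± 0.19.

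Of 12 genes for matrix, adhesion and secreted proteins, 7 were higher, among them the laminin gene Lamb2 at 2.15 ± 0.35, Thsd7a at 1.99 ± 0.34 and the integrin gene Itga3 at 1.58 ± 0.27. Of the 43 genes on the 4 lists 24 were called higher and 0 lower, where 10.4% of all genes tested were called higher. Several, such as Fyn, Slc9a3r2 and Lamb2, are made by endothelium as well.

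Per length, the order of the 8 genes could be read in TPM, which corrects for transcript length. In the 11 endothelial isolates the median was 115 TPM for Podxl, 20.7 TPM for Synpo, 15.8 TPM for Cd2ap, 14.3 TPM for Nphs1, 8.90 TPM for Ptpro, 5.25 TPM for Wt1, 2.29 TPM for Magi2 and 1.57 TPM for Plce1. Podxl was above Synpo in 11 of 11 libraries and Wt1 above Magi2 in 11 of 11. Synpo, Cd2ap and Nphs1 were not separated beyond their spread, since Synpo was above Cd2ap in 8 of 11 and Cd2ap above Nphs1 in 6 of 11.

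In the 12 tubule libraries Cd2ap moved up in this order, with a median of 12.7 TPM behind 17.1 TPM for Podxl. Podxl was the higher of the pair in only 7 of 12 libraries. Synpo followed at 3.61 TPM and Nphs1 at 2.44 TPM, and Cd2ap was above Synpo in 12 of 12.

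Within an isolation most members varied together from library to library. The Pearson r of each gene's log2 CPM with the mean of the other 7, over the 11 endothelial isolates, was 0.97 for Podxl and for Synpo, 0.91 for Plce1, 0.87 for Wt1 and for Magi2, 0.86 for Nphs1 and 0.80 for Ptpro. It was 0.20 for Cd2ap. Over the 12 tubule libraries r was 0.97 to 0.98 for Nphs1, Podxl, Wt1, Synpo and Ptpro, 0.67 for Plce1, 0.57 for Magi2 and 0.06 for Cd2ap. The tubule values rested in part on the 3 libraries with few Nphs1 reads. Over the other 9 tubule libraries r was 0.96 for Podxl, 0.91 for Synpo, 0.85 for Nphs1, 0.83 for Wt1, 0.65 for Ptpro and for Plce1, 0.10 for Cd2ap and -0.47 for Magi2. These are descriptions over libraries that differ in group and in cell content.

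**Figure D3:**
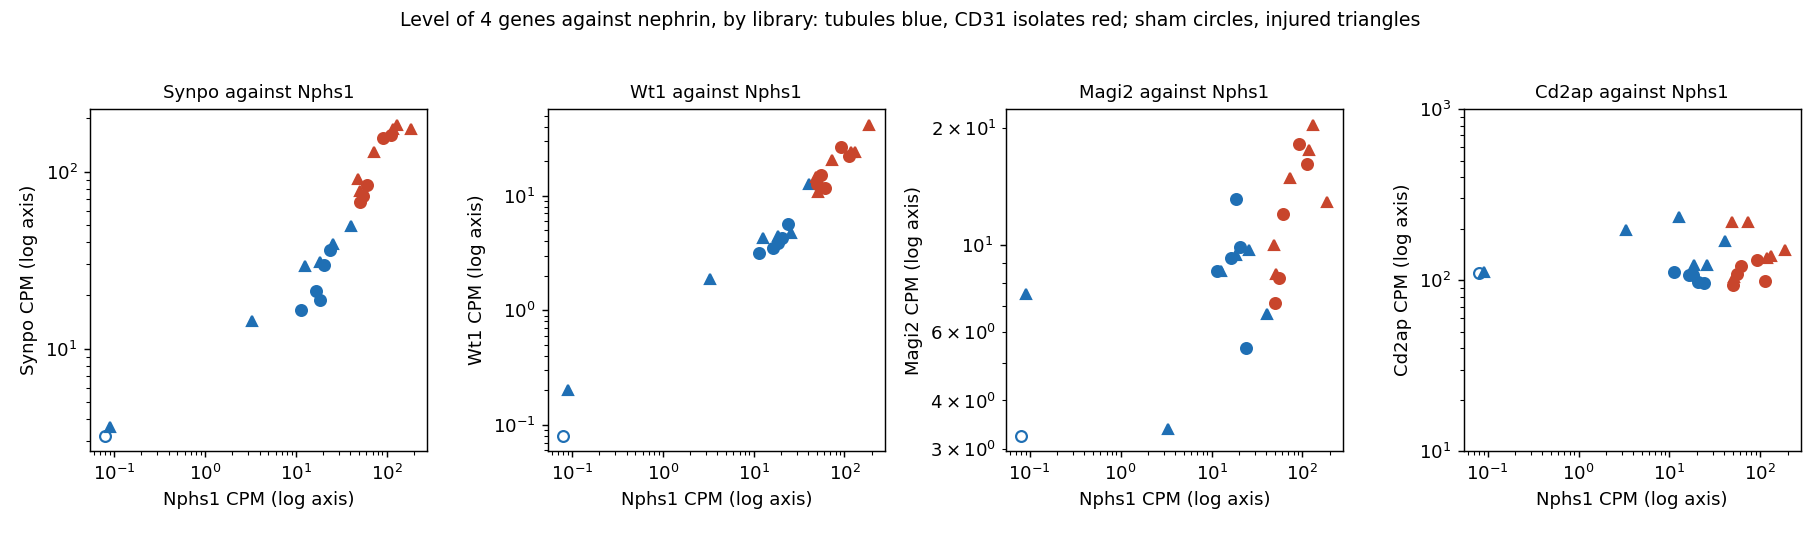
CPM of Synpo, Wt1, Magi2 and Cd2ap against CPM of Nphs1, both on log axes, with 1 point per library (blue tubules, red endothelial isolates, circles sham, triangles injured, and the open circle at the floor of 0.0806 CPM). Synpo and Wt1 rise along 1 line over both isolations, Magi2 rises less, and Cd2ap stays between 93.3 and 235 CPM throughout.

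The genes outside the 8 whose levels were most like theirs were also podocyte or vessel genes in part. Over the 11 endothelial isolates the highest Pearson r with the members' mean was that of Kirrel, at 0.964, and the genes next to it included Sulf1, Slco2a1, Cyyr1, Ackr2, Lbh, Wiz, Lmx1b and Sncaip, the last of these at 0.937. Over the 12 tubule libraries the first was Nell2, at 0.991, and the genes next to it included Sema3e, Cdkn1c, C1qtnf1, Ddn, Sulf1, Plekhh2, Myom2 and Shisa3, the last at 0.953. Sulf1 was on both lists.

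The members differed in how far their reads came from 1 annotated transcript. The share of the leading transcript over all libraries was 98.6% for Podxl, 92.0% for Nphs1, 91.8% for Cd2ap, 84.9% for Ptpro, 76.5% for Magi2, 58.4% for Synpo and 54.6% for Wt1. Plce1 was split between a transcript with 53.3% and another with 42.5%. These shares are estimates, since reads that fit several transcripts were divided among them.

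Cd2ap was higher after ischemic injury in male tubules. In sham male tubules Cd2ap was at 111, 96.1 and 97.1 CPM, and in injured male tubules at 168, 196 and 235 CPM, so the groups did not overlap. The log2 change was 0.98 ± 0.13 (edgeR adjusted p = 0.00148), and this was the 1 of 8 members called, where 19% of all genes were called, 10.6% higher and 8.43% lower. It was as large without injured male tubule replicate 2, at 0.99, and without sham male tubule replicate 1, at 1.04. Among the alternatives run, it missed the threshold when the 2 male tubule groups alone were fitted (edgeR adjusted p = 0.059). In the authors' deposited table the change was 1.09 with an adjusted p of 2.2e-13.

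In female tubules Cd2ap went from 107, 112 and 108 CPM in sham mice to 123, 123 and 111 CPM after injury, and these groups overlapped. The log2 change was 0.12 ± 0.13 (95% interval -0.16 to 0.40, edgeR adjusted p = 0.878). In female tubules 0 of 8 members were called by edgeR or by DESeq2, 0 had an unadjusted p under 0.05, and edgeR called 0.0109% of all genes. The difference between the male and the female response was 0.86 ± 0.18 for Cd2ap and fell just short of the threshold (edgeR adjusted p = 0.0535), against 0.855% of all genes called. It passed with another normalization and with DESeq2. With single libraries left out in turn, the edgeR adjusted p of this difference ran from 0.00184 to 0.149. Without the low tubule libraries together the difference was 0.89 and missed the threshold by more (edgeR adjusted p = 0.486).

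Compared directly after injury, Cd2ap was higher in male than in female tubules by 0.74 ± 0.13 (edgeR adjusted p = 0.00324), the 1 of 8 members called against a background of 23.3%. Without the 3 low tubule libraries this difference was 0.71 and missed the threshold (edgeR adjusted p = 0.0869). Before injury males and females overlapped, with a difference of -0.12 ± 0.13 (edgeR adjusted p = 0.7), and 0 of 8 members were called by edgeR or DESeq2 against 5.8%, with 0 at an unadjusted p under 0.05. With the 3 low tubule libraries left out, Synpo was higher in sham males by 0.79 ± 0.26 and Plce1 by 1.16 ± 0.49. Neither was called, but both had an unadjusted edgeR p under 0.05 (0.0138 and 0.0441). Cd2ap and Magi2 leaned lower in sham males in that fit, at -0.18 and -0.44. With both sexes weighted equally the rise of Cd2ap in tubules was 0.55 ± 0.09 (edgeR adjusted p = 0.00552), the 1 of 8 members called against 11.7%.

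The endothelial isolates showed a like pattern for Cd2ap that did not pass the test over all genes. It was at 93.3, 108 and 131 CPM in sham males and at 220.0, 149 and 220 CPM in injured males, without overlap. The log2 change was 0.82 ± 0.22 (95% interval 0.34 to 1.30, edgeR adjusted p = 0.105). The authors' deposited table gives it as 0.79 with an adjusted p of 0.0086. In females Cd2ap was at 98.8 and 121 CPM before injury and at 135, 138 and 104 CPM after it, with a change of 0.19 ± 0.24 (edgeR adjusted p = 1). Injured males exceeded injured females by 0.67 ± 0.22 (edgeR adjusted p = 0.185), while the authors' deposited table gives 0.67 with an adjusted p of 0.028. The male minus female difference in response was 0.63 ± 0.32 (edgeR adjusted p = 0.738).

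Markers of tubule cells moved in the male tubules at the same time. Of 12 proximal tubule markers, 9 were called lower after injury in male tubules, with a median log2 change of -0.92. Of 12 leukocyte markers tested, 4 were called higher and 8 did not pass, with a median of 0.04. Over all genes 10.6% were called higher and 8.43% lower. In female tubules 0 of 12 proximal tubule markers were called. The part of these shifts in the Cd2ap change was not tested.

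The 7 members other than Cd2ap were not called after injury in any group by edgeR. In male tubules their log2 changes ran from -0.36 ± 1.21 for Ptpro to 0.91 ± 1.15 for Wt1, and in female tubules from -0.23 ± 0.41 for Magi2 to 0.62 ± 0.76 for Plce1. The errors in tubules were wide. The 95% interval for Nphs1 in male tubules was -2.91 to 3.60, and 2 of the 3 low libraries sit in this comparison. Without the 3 low libraries the interval was -0.85 to 1.38. Without injured male replicate 2 the value for Ptpro was 0.14, and without injured male replicate 1 that for Wt1 was -0.13, so the data did not fix the direction of either.

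In the endothelial isolates the errors were smaller, and 0 of 8 members were called in either sex. In males all 8 estimates were above 0, with a median of 0.45 against -0.02 over all genes, and 0.864% of all genes were called. Cd2ap was the 1 member with an unadjusted p under 0.05 and the 1 that DESeq2 called. The estimate for Nphs1 was 0.65 ± 0.50 (95% interval -0.44 to 1.75) and became -0.13 without injured male endothelial replicate 2, its highest library. That for Ptpro was 0.14 ± 0.38 (95% interval -0.71 to 0.98). In females 7 of 8 estimates were above 0, with a median of 0.20 against 0.01, and 0 members had an unadjusted p under 0.05. Over all 19910 genes edgeR called 0 in females, with 475 at an unadjusted p under 0.05, and DESeq2 called 34, none of them a member. The estimate for Ptpro in females was 0.50 ± 0.44 and that for Plce1 -0.09 ± 0.54. Since most members varied together from library to library, their common sign is not 8 separate observations.

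With the sexes weighted equally, 0 of 8 members were called in endothelial isolates, against 0.196% of all genes, with 1 member, Cd2ap, at an unadjusted p under 0.05, and 8 of 8 estimates were above 0, from 0.16 ± 0.29 for Magi2 to 0.50 ± 0.16 for Cd2ap. Between males and females no member was called in endothelial isolates by edgeR or by DESeq2 as run here, while the authors' deposited table calls Cd2ap in injured mice, as given above. The background was 0.432% of all genes in sham mice, where 0 members had an unadjusted p under 0.05, and 1.5% in injured mice, where 1 did. For the difference in response edgeR called 0 genes, with 1294 at an unadjusted p under 0.05 and 0 of them members, and DESeq2 called 60 genes and 0 members.

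**Figure D4:**
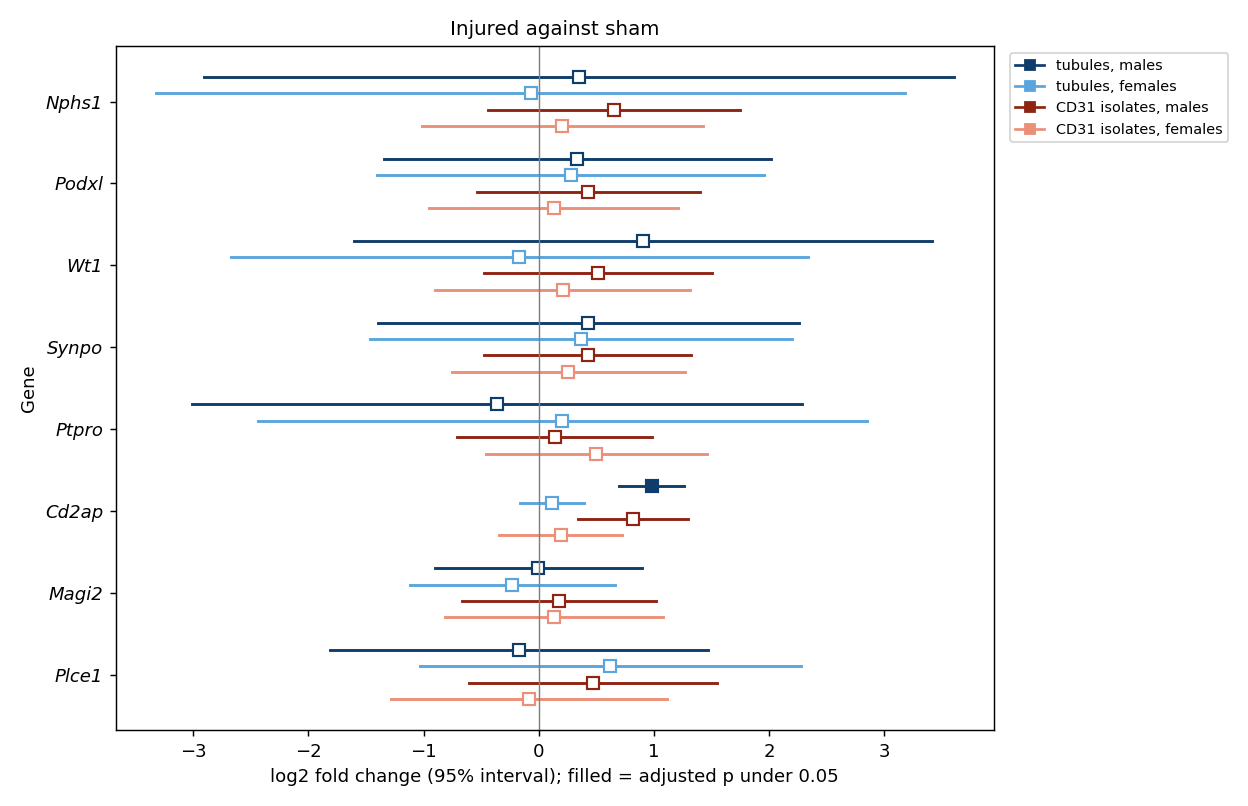
Log2 fold change of injured against sham for the 8 genes, in tubules (blue) and endothelial isolates (red) of males (dark) and females (light). Squares are edgeR estimates with 95% intervals, filled where the adjusted p was under 0.05. Cd2ap in male tubules, at 0.98, is the 1 filled point, and the intervals of Nphs1, Wt1 and Ptpro in tubules span more than those in endothelial isolates.

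Podocyte genes beyond the 8 were read from the same lists after injury in male tubules. Of 12 further slit diaphragm genes and 6 transcription factors, edgeR called 0, with 3 and 1 at an unadjusted p under 0.05. Of 13 cytoskeletal genes 4 were higher and 1 lower, with Arhgdia at 0.75 ± 0.12 (edgeR adjusted p = 0.00306), the non-muscle myosin gene Myh9 at 1.82 ± 0.29 and the ezrin gene Ezr at 1.55 ± 0.39. Of 12 matrix, adhesion and secreted genes 3 were higher and 3 lower, among them the basement membrane collagen gene Col4a4, which fell by 0.98 (edgeR adjusted p = 0.00168), and Cd151 and Lama5, which rose by 0.74 ± 0.13 and 1.64 ± 0.34. Over the 43 genes of the 4 lists 7 were called higher and 4 lower, where 10.6% of all genes were called higher and 8.43% lower. Several of these genes, such as Myh9, Ezr and Lama5, are known in tubule epithelium as well. In female tubules edgeR called 0 of these 43 genes, where 0.0109% of all genes were called.

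The ratio of Nphs1 to Ptpro, the genes of 2 membrane proteins of the foot process, was chosen after its values were seen. Nphs1 CPM divided by Ptpro CPM lay between 1.2 and 1.81 in the 15 libraries of other groups than injured males that had at least 50 reads of both genes. In the injured males it was 1.07, 3.83 and 1.12 in endothelial replicates 1, 2 and 3, and 2.93, 2.35 and 1.49 in tubule replicates 1, 2 and 3. Thus 3 of the 6 injured male libraries lay above the range of the other groups, 2 below it and 1 within it. Other ratios varied as much or more, such as that of Nphs1 to Cd2ap, which ran from 0.222 to 1.26 in endothelial isolates. In injured male endothelial replicate 2 Plat, the gene of tissue plasminogen activator and on the glomerular endothelial list, was at 4096 CPM against 251 to 789 CPM in the other endothelial isolates, whereas Ehd3 was at 52.3 CPM, the lowest of the 11.

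**Figure D5:**
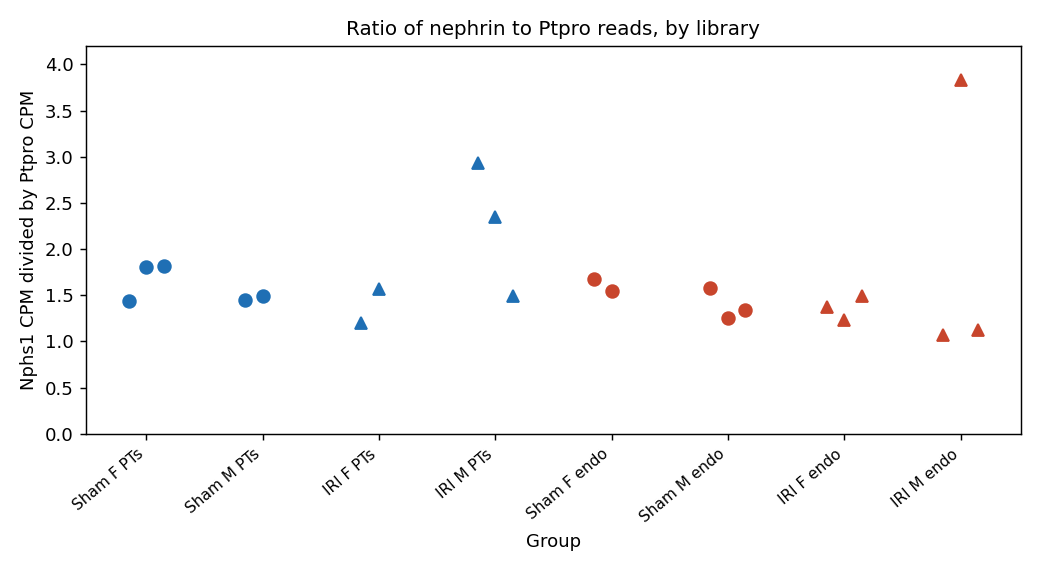
Nphs1 CPM divided by Ptpro CPM in the 21 libraries with at least 50 reads of both genes, by group (blue tubules, red endothelial isolates, circles sham, triangles injured). 3 injured male libraries lie at 2.35, 2.93 and 3.83, above the 1.07 to 1.81 of the other 18.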

How the data were processed

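Messenger RNA was measured by sequencing of poly-A libraries. Per the submitters' processing notes, reads were quantified by the authors with Salmon 0.13.1 and GRCm38 as the build. The deposited files give, per transcript, an estimated count, a TPM value and an effective length. The deposited comparison tables, made by the authors with DESeq2 per the submitters' processing notes, give a log2 fold change, its error (lfcSE) and an adjusted p-value. These columns were used only where the authors' deposited table is named.

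Estimated counts were summed per gene symbol and rounded. The 2 libraries of sham male tubule replicate 3 were added, since the labels call them technical replicates. Fits used edgeR 4.0.16 in R 4.3.3 with TMM, a mean for each group, the quasi-likelihood F-test and the filterByExpr filter at a count of 10 and a total of 15. They covered 18369 genes in 12 tubule libraries, 19910 in 11 endothelial libraries and 21206 in all 23, the last for endothelial against tubule with the sexes weighted equally. The Benjamini-Hochberg adjustment covered every gene in a fit, and the 95% intervals use the t quantile of each fit. The self-test on simulated data drew changed genes at known folds.

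The 8 genes, the gene lists and the tests were chosen with earlier results of these data known, and the lists come from general knowledge. The 8 members are always named. From each list of other podocyte genes up to 3 with the smallest adjusted p are named, from marker lists only leading genes, and for likeness the 10 genes with the highest Pearson r of log2 CPM (prior count 2) with the members' mean. Title numbers shared by the isolations may mark a mouse, but no label says so, and p-values measure the spread between these samples.

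Depth sets the floor of 3 counts, which covers counting error only. In GENCODE M21 the antisense gene Nphs1os shares 9.02% of the exon bases of Nphs1 but drew 74.3 reads in all libraries together. The alternatives were RLE normalization, no low-count filter, DESeq2 1.42.0, length offsets, only the groups compared, a replicate block, 1 technical library alone, TPM in place of CPM for levels, leaving out each library in turn, and, added after the data were seen, leaving out 3 tubule libraries with under 200 reads of Nphs1 together. Values of some genes outside the 8 are not reported here.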

Additional observations from a re-analysis of the deposited data

How the results depend on the processing

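Of 213 recounts of members called, 193 stayed within 1.5 times the reported count, and none of the called changes turned its direction. A reported 0 that stayed at 0 counts among the 193, and several comparisons had 0 called under every alternative. That share therefore says little about the larger counts. Over all alternatives the count for endothelial against tubule ran from 3 to 6 in sham mice and from 1 to 6 in injured mice. Cd2ap in male tubules went from 1 called to 0 when only the groups compared were fitted. Cd2ap in male endothelial isolates went from 0 called to 1 with DESeq2, and leaving out single libraries gave 0 to 1 (1 without injured replicate 2). The male minus female response in tubules went from 0 to 1, Cd2ap, with RLE normalization, with DESeq2 and with technical library 3B alone, and leaving out single libraries gave 0 to 1. For endothelial against tubule, leaving out single libraries gave 3 to 5 called in sham mice and 1 to 5 in injured mice. Without the low-count filter 6 were called in each state, Nphs1 among them, and DESeq2 called 6 in injured mice. With the 3 low tubule libraries left out, a choice made after seeing the data, 0 members were called for injured males against females in tubules, where 1 was before.

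Changes that turned sign were all uncalled. With length offsets Magi2 was 0.32 for injury in female tubules and Cd2ap was -0.023 for sham males against females in endothelial isolates. Cd2ap for injured endothelial against tubule was -0.00020 with RLE, -0.0092 without the filter, -0.00029 with DESeq2, -0.0023 with only the groups compared and -0.040 with the 3 low tubule libraries left out.

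Leaving out single libraries also turned signs. For injury in male tubules it gave -0.89 to 0.86 for Nphs1, -0.13 to 1.52 for Wt1 and -1.04 to 0.17 for Ptpro. For injury in male endothelial isolates it gave -0.13 to 0.99 for Nphs1 and -0.048 to 0.44 for Ptpro, and in female ones -0.33 to 0.29 for Plce1. For Cd2ap it gave -0.12 to 0.23 for sham males against females in endothelial isolates, -0.044 to 0.14 for sham and -0.028 to 0.11 for injured endothelial against tubule.

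Deviations of samples with 1 title number or 1 replicate number did not move together throughout, so a block was kept as an alternative. Between the isolations the correlation of deviations for samples with 1 title number was -0.43 to 0.57 over 11 pairs, 3 of them over 0.1. Within isolations samples of different groups with the same replicate number were paired. Their correlation was -0.27 to 0.23 over 15 endothelial and -0.05 to 0.14 over 18 tubule pairs. With the title number as a block 4 members were called in sham (Wt1 lost) and 5 in injured (Magi2 gained) endothelial against tubule. Within isolations the block was the replicate number, and the counts did not change. TPM in place of CPM moved the log2 ratio of group means between isolations by -0.14 to 0.53. The cause of these shifts was not tested. Depth limits Nphs1, Wt1 and Ptpro in the 3 tubule libraries with few reads of them.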
